A study of Arabidopsis thaliana with 17 samples.

Results

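The genes described here are the core regulators of the Arabidopsis thaliana cell cycle: the A, B and D cyclins, the cyclin-dependent kinases of classes A to E, the KRP inhibitors and the 3 typical E2F factors. They were taken from the gene annotation by name, as protein-coding genes whose symbol or synonym is CYCA, CYCB or CYCD with a number pair, CDKA to CDKE with a number, KRP with a digit, or E2FA, E2FB or E2FC. The rule uses no measured value, but the members were chosen with earlier results of these data known. The rule found 50 of 27444 nuclear protein-coding genes, namely 10 D cyclins, 10 A cyclins, 10 B cyclins, 11 kinases, 6 KRP inhibitors and 3 E2F factors. KRP4 carries only its long name in the annotation and fell outside the rule. It had no cover in any list, and its log2 H3K27me3 over H3 was -0.01 ± 0.37 (SE).

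The study profiled H3K27me3, the histone mark set by Polycomb repressive complex 2 and linked to silent genes, and total histone H3, by CUT&RUN, a method that cuts out antibody-bound chromatin with a tethered nuclease. Endosperm nuclei were sorted by DNA content at 6N from seeds of Col mothers and Ler fathers 4 days after pollination. They were either fixed with formaldehyde (2 H3K27me3 and 2 H3 libraries) or left unfixed (2 of each). Leaf nuclei of 2N, 4N and 8N content came from 3-week-old Col plants that were not crossed, with 1 library per antibody. Endosperm and leaf therefore differed in tissue, age, DNA content and the presence of a Ler genome at once, and these cannot be told apart. Endosperm nuclei were recognised by DNA content only. The labels do not say that replicate libraries came from separate plants, so the spread between them may be technical.

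D cyclins bind the kinase CDKA;1 early in the cycle, and the complex phosphorylates the retinoblastoma protein, which frees the E2F factors to switch on genes of DNA replication. A cyclins act from S phase onward and B cyclins, with the plant-specific B-type kinases, at mitosis. KRP proteins bind cyclin-kinase complexes and block them. Young endosperm divides as a syncytium, with rounds of nuclear division and no cell walls, before it cellularizes, while older leaf cells leave division and copy their DNA without mitosis.

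The domain lists give the stretches the authors called enriched for H3K27me3 in each library, and a gene counts here as marked where domains cover at least 50% of its body. The 4 endosperm lists held 5940 to 8403 domains and the leaf list 5878. The second unfixed library stood apart, with 12.7 Mb covered against 19.8 to 21.3 Mb in the other endosperm lists, and its domains were the shortest, with a median of 1200 bp. As a check of the lists, 4 of 5 known Polycomb target genes were marked in every endosperm list and 5 of 5 in leaf. None of 5 photosynthesis genes was marked in every endosperm list or in leaf, but RBCS1A was covered at 77.3% in the first fixed and second unfixed lists. Of 5 housekeeping genes, 1, PP2AA3, was marked in every endosperm list. Of 4 seed coat genes, 1 was marked in every endosperm list and 3 in leaf, and of 7 genes of endosperm 3 and 5 were. The files give no depth for single libraries.

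Cell-cycle genes were marked less often than genes at large in each of the 5 lists, as a description without a test. In the fixed endosperm lists 4 (8%) and 6 (12%) of the 50 were marked, against 20.37% and 20.18% of all genes. In the unfixed lists 9 (18%) and 4 (8%) were marked, against 21.60% and 15.97% of all genes. In leaf 2 (4%) were marked, against 20.34% of all genes. Over the endosperm lists together, 12 members (24%) were marked in at least 1, close to the 27.91% of all genes, but only 2 (4%) in all 4, against 11.89% of all genes. The marks on cell-cycle genes thus varied from library to library: 6 members were marked in a single endosperm list, 3 in 2 lists and 1 in 3 lists, where 6.7%, 4.11% and 5.21% of all genes were. Of the 6, CDKD1;2, CYCA1;1, CYCA3;3 and CYCB1;5 were marked in the first unfixed list. CYCA2;3 was marked in the second unfixed list and CYCD7;1 in the first fixed list. The first unfixed library thus weighed most in this count and in that of members marked in at least 1 list. The remaining 38 members (76%) were marked in no list, against 69.15% of all genes. Domains of any list met 18 members (36%) over some part of the gene body, against 42.1% of all genes, and the counts by role below are to be read beside that share.

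**Figure D1:**
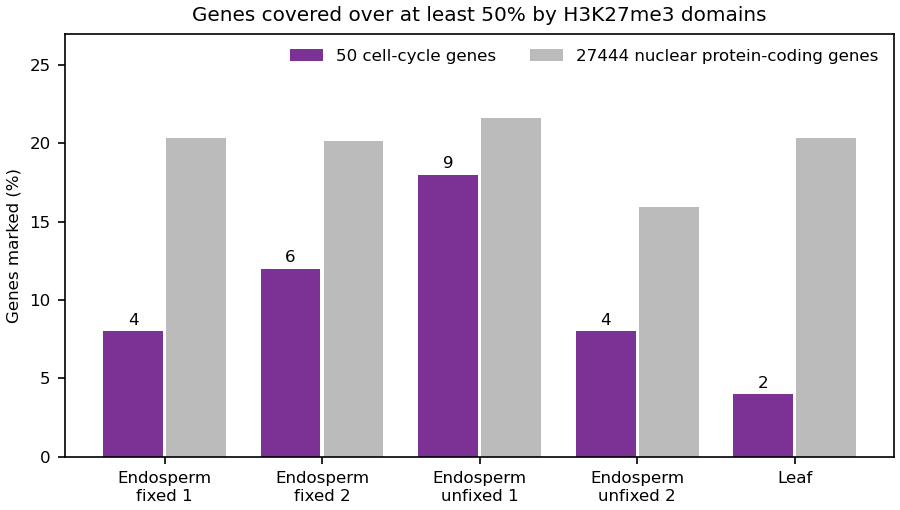
The share of genes marked (y axis, percent) in each of the 5 H3K27me3 lists (x axis), for the 50 cell-cycle genes and for all 27444 nuclear protein-coding genes. The cell-cycle share lay between 4% and 18% and was below that of all genes in every list.

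E2FC and CYCD2;1 were the only members marked in all 4 endosperm lists, and neither was marked in leaf. That pattern was found in 2.31% of all genes, or 634 genes. Leaf marks without a mark in any endosperm list were found for 0 members, against 2.94% of all genes. The count of 2 depends on the rule: it was 0 at 80% cover and 1 with only the upper 75% of each list by the authors' enrichment, where E2FC was lost. Without the second unfixed library it was 3, with KRP2. Under these settings, in the same order, the pattern was found in 375, 492 and 909 of all genes. With 1 leaf library there is no test of tissue.

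**Figure D2:**
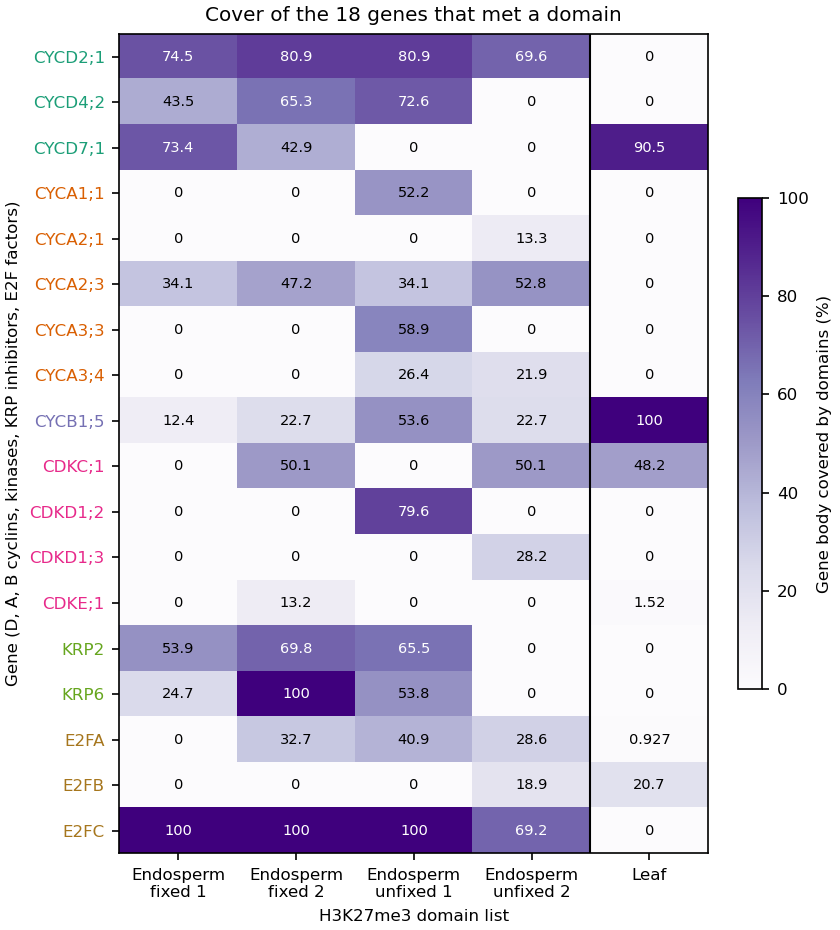
Percent of the gene body covered by H3K27me3 domains (colour) for the 18 members that met a domain (rows, by role) in the 4 endosperm lists and the leaf list (columns). E2FC and CYCD2;1 are covered over more than 50% in every endosperm list and 0% in leaf, and most other genes are covered in some endosperm lists only.

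Among the E2F factors, E2FC (AT1G47870) is known mainly as a repressor of E2F target genes that restrains division. It had the highest log2 H3K27me3 over H3 of the 37 members with enough reads. Members under the read minimum, such as KRP2 with 99 H3K27me3 and 18 H3 reads, were not ranked. By the authors' enrichment the domains over E2FC were at percentile 23.5 of the second fixed list and 66.6 to 80.8 of the other endosperm lists. Domains covered 100% of it in both fixed lists, and 100% and 69.2% in the unfixed lists, against 0% in leaf. On TAIR10 its domains were chr1:17633101-17639100 and chr1:17633251-17639250 in the fixed lists, each 6000 bp wide, and chr1:17625901-17639250 in the first unfixed list, 13350 bp wide. The second unfixed list broke the same stretch into chr1:17634151-17634900 and chr1:17635501-17637450. E2FC was the only protein-coding gene each of them touched. The nearest leaf domain ended 3246 bp away. The neighbour on the lower-coordinate side, AT1G47845, was likewise covered at 49.6% to 72.3% in the endosperm lists and 0% in leaf.

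The second measure, made per the labels from the same endosperm libraries, was the number of endosperm H3K27me3 reads per H3 read over the gene body, both parents summed. It is given as a log2 ratio against the median of unmarked genes, those marked in none of the 5 lists, with an SE widened for local clumping of reads. The count columns carry no replicates, so this error holds no variation between libraries. Calls required a ratio of 2-fold or more with a 95% interval that did not include 0. Of 37 members with at least 40 reads for each antibody, 1 was called higher (2.7%), against 19.16% of the genes tested, and 0 lower, against 1.23%. The 37 had a median of 0.27, against 0.22 for all genes tested and 1.65 for genes marked in every endosperm list.

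E2FC was the member called higher. It had 322 H3K27me3 reads and 66 H3 reads, a log2 ratio of 2.13 ± 0.40 (SE) that exceeded 97.3% of all genes tested. The enrichment extended past the gene: the 1500 bp flanks stood at 1.82 ± 0.36 on the lower-coordinate side and 1.26 ± 0.28 on the other. The other E2F factors, E2FB (AT5G22220) and E2FA (AT2G36010), both activators of S-phase genes, had 0.90 ± 0.30 and 0.60 ± 0.23 and were not called. E2FA was covered at 0% and 32.7% in the fixed lists and 40.9% and 28.6% in the unfixed lists, under the 50% threshold, and at 0.927% in leaf. By the authors' enrichment its domains were at percentile 0.875 of the second fixed list, 61.7 of the first unfixed list and 11.1 of the second. E2FB was covered at 18.9% in the second unfixed list and 0% in the other endosperm lists, against 20.7% in leaf. The log2 ratio of E2FC exceeded that of E2FA by 1.53 (95% interval 0.62 to 2.44) and that of E2FB by 1.23 (0.24 to 2.22), a pair of comparisons among 9 chosen after the values were seen.

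**Figure D3:**
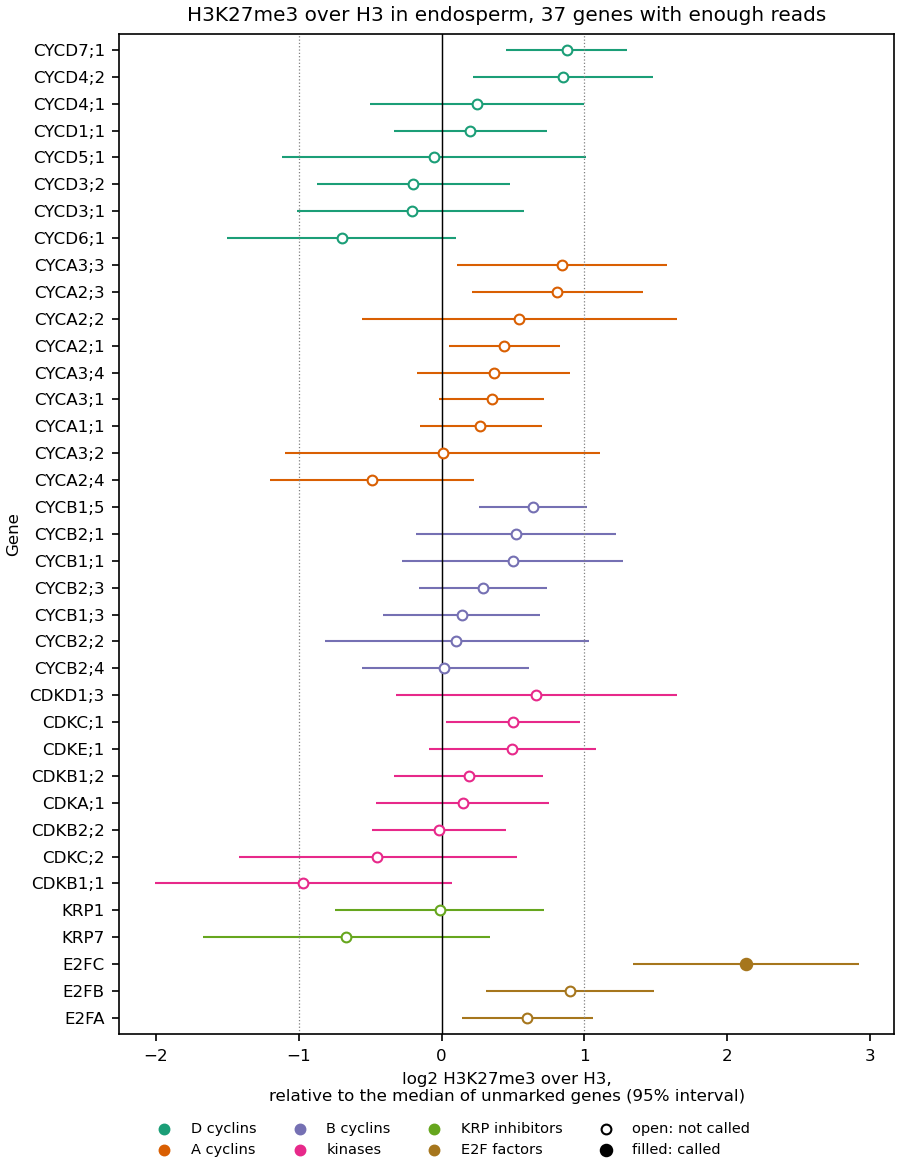
Log2 H3K27me3 over H3 in endosperm (x axis), relative to the median of unmarked genes, for the 37 members with enough reads (rows), with 95% intervals. Colours give the role, filled points are called, and dotted lines mark 2-fold. E2FC at 2.13 stands to the right of all others, and the rest lie between -0.97 and 0.90.

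Of the D cyclins, which start the cycle in response to sugar, hormones and developmental cues, 3 of 10 met a domain and all 3 were marked in at least 1 list. CYCD2;1 (AT2G22490) was covered at 74.5% and 80.9% in the fixed lists and 80.9% and 69.6% in the unfixed lists, against 0% in leaf. Its mean over the endosperm lists was 76.5% ± 5.46 (SD, n = 4), so the 4 libraries lay close together. The domains began at nearly the same place: chr2:9554401-9556200 and chr2:9554251-9557400 in the fixed lists, chr2:9554251-9556200 and chr2:9554251-9555900 in the unfixed lists. Each touched no other protein-coding gene, and the nearest leaf domain was 12633 bp away. Few allele-assigned reads fell in it, 84 for H3K27me3 and 21 for H3. It missed the minimum for that reason, and with the minimum at 20 reads its log2 ratio was 1.83 ± 0.72, which was then called higher. Both of its neighbours, PFK5 and UCP5, had 0% cover in every list. The enrichment was not confined to the gene, however. The 1500 bp flank on the higher-coordinate side stood at 1.15 ± 0.23 (573 H3K27me3 and 232 H3 reads), and the other flank at 0.63 ± 0.43. On the higher-coordinate side the first fixed list and both unfixed lists held a further domain, and the domain of the second fixed list ran past the gene.

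CYCD4;2 (AT5G10440), known in stomatal lineage divisions of the hypocotyl, was covered at 43.5% and 65.3% in the fixed lists and 72.6% and 0% in the unfixed lists, against 0% in leaf. Its domains, 900 to 1500 bp wide, lay wholly inside the gene (chr5:3281401-3282300, chr5:3280651-3282000 and chr5:3280801-3282300). Read ratios had the same shape, with 0.85 ± 0.32 over the body and -0.72 ± 0.60 and -0.02 ± 0.62 in the flanks. The authors' enrichments for these domains were at or below the 20th percentile of their lists. Its close relative CYCD4;1 had no cover and a ratio of 0.25 ± 0.38. The difference between the relatives was 0.60 (-0.38 to 1.58), so they could not be told apart.

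CYCD7;1 (AT5G02110), which acts in the last symmetric division that forms guard cells, was the D cyclin marked in leaf. It was covered at 73.4% and 42.9% in the fixed endosperm lists and 0% and 0% in the unfixed lists, against 90.5% in leaf. The domains were chr5:416851-418200 and chr5:417751-418500 in endosperm and chr5:416401-418500 in leaf. All the fixed values lay above the unfixed ones, a split whose share among all genes was not computed. The endosperm ratio was 0.88 ± 0.22, the highest of the D cyclins tested and short of 2-fold. The other 7 D cyclins met no domain, the CYCD3 genes that respond to cytokinin among them. The lowest ratio was that of CYCD6;1, a target of the root pattern factors SHORT-ROOT and SCARECROW, at -0.70 ± 0.41.

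The A cyclins met domains in 5 of 10 genes, near the share of all genes, and none was covered in leaf. CYCA2;3 (AT1G15570), known to hold back the switch from mitosis to endoreduplication, was covered in every endosperm list, at 34.1% and 47.2% fixed and 34.1% and 52.8% unfixed. It was thus marked in 1 list and just short of it in another, with a mean of 42.0% ± 9.47 (SD, n = 4). In both fixed lists and the first unfixed list nearly all of this cover came from domains that also touched the neighbour IAA5. The one in the second fixed list was 8700 bp wide and touched 5 genes. In the second unfixed list the domain touched CYCA2;3 alone. The neighbours IAA5 and GA3OX1 were covered at 44.5% to 100% and 86.5% to 100% in the endosperm lists, and 0% in leaf. The log2 ratio of CYCA2;3 was 0.81 ± 0.31, and 1.10 ± 0.30 in the flank on the higher-coordinate side. That of its relative CYCA2;4, which met no domain, was -0.49 ± 0.36, the lowest of the A cyclins. The difference was 1.30 (0.37 to 2.23), without adjustment, in one of the 9 comparisons chosen after the values were seen. CYCA2;3 differed from its other relatives CYCA2;1 and CYCA2;2 by 0.37 (-0.34 to 1.09) and 0.27 (-0.99 to 1.53), so these could not be told apart. CYCA3;3 and CYCA1;1 were marked in the first unfixed list only, at 58.9% and 52.2%, with 0% in the other 4 lists. By the authors' enrichment their domains were at percentiles 75.1 and 2.75 of that list. The ratio of CYCA3;3 was 0.84 ± 0.37, the highest of the A cyclins, with flanks at 0.08 ± 0.40 and -0.02 ± 0.37. The ratio of CYCA1;1 was 0.27 ± 0.22, close to the median of the members.

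Next to CYCA3;3 on chromosome 1 lies CYCA3;4 (AT1G47230), covered at 26.4% and 21.9% in the unfixed lists, at 0% in both fixed lists and at 0% in leaf. All the unfixed values lay above the fixed ones, the opposite of the guard-cell D cyclin. The share of all genes with such a split was not computed. The cover came from different places, chr1:17306701-17307300 in the first unfixed list and chr1:17308351-17309700 in the second. CYCA2;1 was covered at 13.3% in the second unfixed list alone. Among the A cyclins tested, 8 of 9 had ratios above 0 with centring and 3 of 9 without it, against 12831 and 6759 of the 19775 genes tested. Their median was 0.37, and none was called.

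Of the B cyclins, which drive entry into mitosis, 1 of 10 met a domain. CYCB1;5 (AT1G34460) was covered at 12.4% and 22.7% in the fixed lists and 53.6% and 22.7% in the unfixed lists, against 100% in leaf. The leaf domain, chr1:12594751-12603150, was 8400 bp wide and reached past both ends of the gene. The endosperm domains were 750 to 3150 bp wide and lay inside it. The log2 ratio of 0.64 ± 0.19 was the highest of the 7 B cyclins tested. It rests on 26 of 48 bins, since the other bins had no allele-assigned reads, and much of the endosperm domains lay over bins without reads. The other B cyclins tested had ratios of 0.02 to 0.52 with 0% cover in all 5 lists, the canonical mitotic cyclins of the CYCB1 and CYCB2 groups among them.

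**Figure D4:**
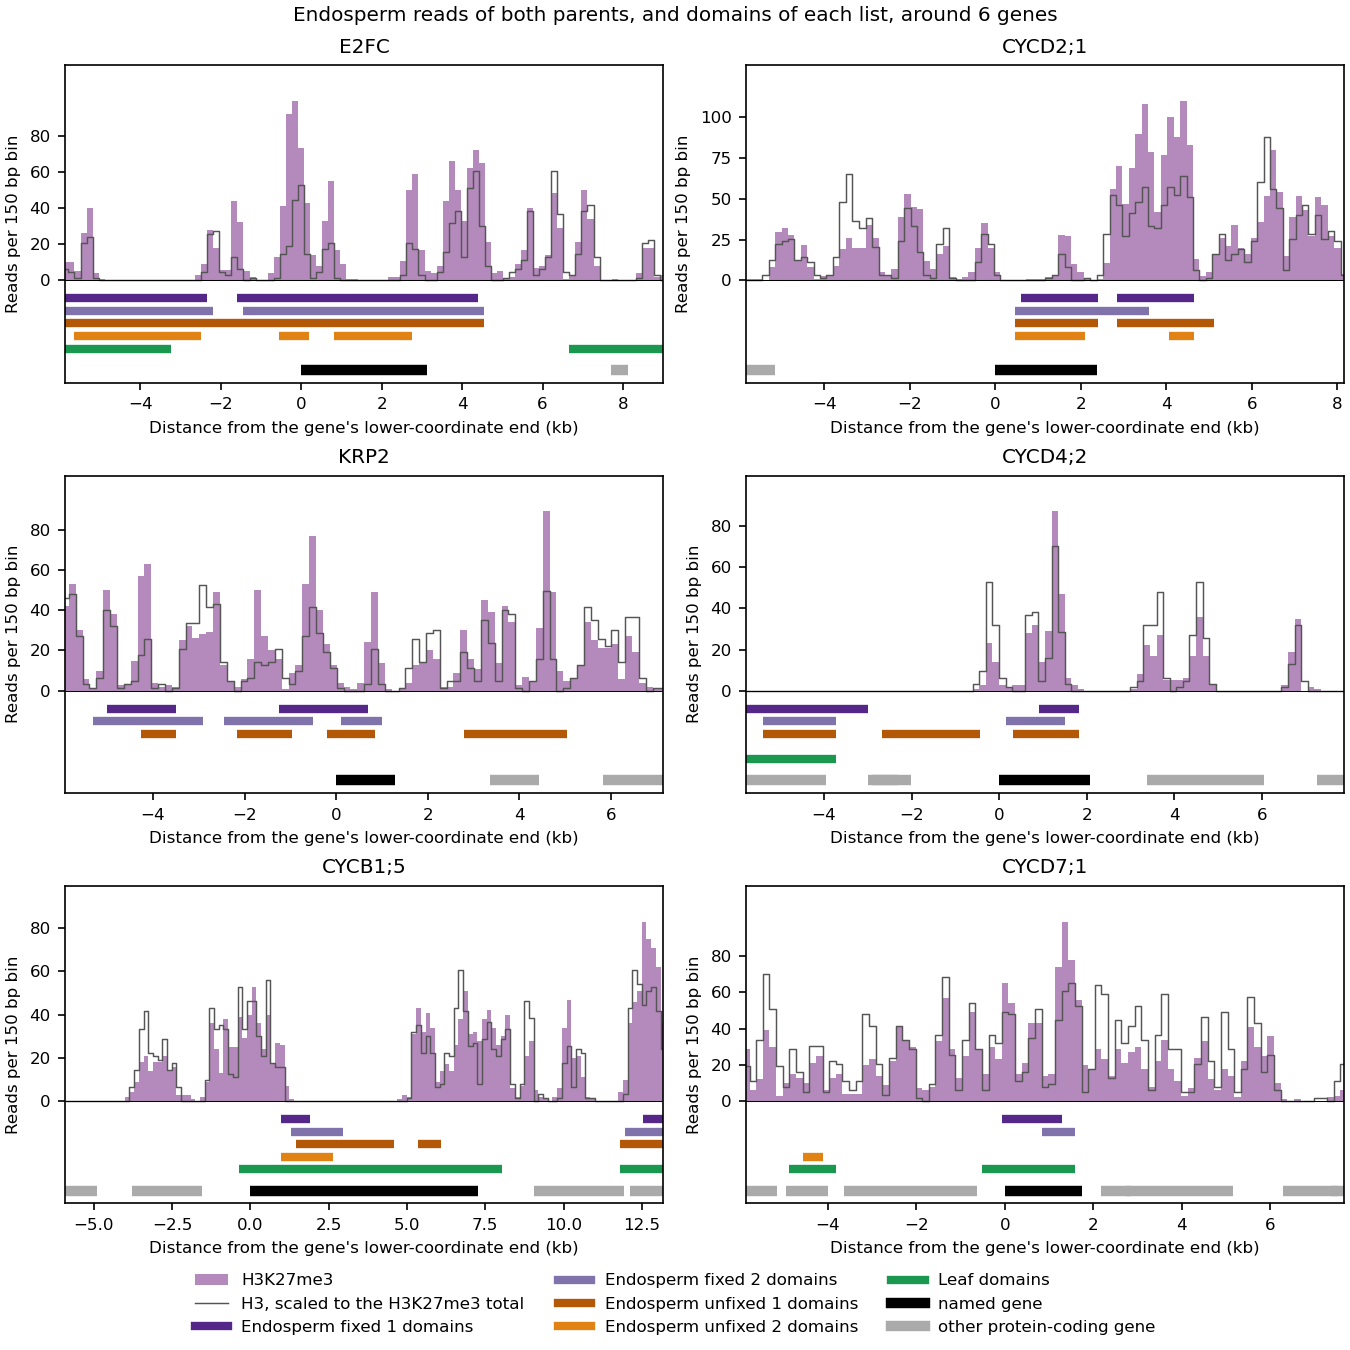
H3K27me3 reads (filled) and H3 reads scaled to the H3K27me3 total (line) per 150 bp bin (y axis) in endosperm, over 6 genes and 6 kb on either side (x axis, distance from the gene's lower-coordinate end in kb), with the domains of each list and the genes drawn beneath. E2FC lies within domains in all 4 endosperm lists with no leaf domain over it, while the leaf domain over the B cyclin spans its full length.

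Among the 11 kinases, 4 met a domain. CDKC;1 (AT5G10270), a kinase of transcription elongation and not of the cell cycle proper, was covered at 0% and 50.1% in the fixed lists, 0% and 50.1% in the unfixed lists and 48.2% in leaf, just inside and just outside the threshold. By the authors' enrichment its domains were at percentile 19.1 of the second fixed list, 8.53 of the second unfixed list and 96.9 of the leaf list. The leaf domain, chr5:3223201-3235350, also covered MYB92 and AT5G10290, so its cover belongs to a wider stretch. CDKD1;2, a CDK-activating kinase, was marked in the first unfixed list at 79.6% and covered at 0% in the other 4. Its domain was at percentile 8.37 of that list by the authors' enrichment. The gene had 61 H3K27me3 and 18 H3 reads, too few for a ratio. A second activating kinase, CDKD1;3 (AT1G18040), was covered at 28.2% in the second unfixed list alone, with a ratio of 0.66 ± 0.50. CDKE;1, the kinase of the Mediator complex, had 13.2% in the second fixed list and 1.52% in leaf, at the edge of a domain over the flavonol synthase genes FLS2 to FLS5. CDKA;1 and all 4 B-type kinases, the kinases of the division cycle itself, had 0% cover in every list. CDKA;1 had a ratio of 0.15 ± 0.31, and the lowest of all members was that of CDKB1;1, at -0.97 ± 0.53.

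Of the 6 KRP inhibitors found by the rule, 2 met a domain, and neither was covered in leaf. KRP2 (AT3G50630), which slows division and favours endoreduplication when raised, was covered at 53.9% and 69.8% in the fixed lists and 65.5% and 0% in the unfixed lists. Its domains were chr3:18799051-18801000, chr3:18800401-18801300 and chr3:18800101-18801150, and the nearest leaf domain was 16105 bp away. It held 99 H3K27me3 and 18 H3 reads, under the minimum. The flank on the lower-coordinate side had 1.07 ± 0.33 and that on the other 0.17 ± 0.42. The neighbour on the lower side, AT3G50620, was covered at 65.4% to 100% in the endosperm lists and 0% in leaf, with a ratio of 1.57 ± 0.44.

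KRP6 (AT3G19150), an inhibitor that must be broken down for the male germ cell to divide, was covered at 24.7% and 100% in the fixed lists and 53.8% and 0% in the unfixed lists. In the fixed lists this cover came from domains of 6150 and 7350 bp that also touched its neighbour IPT8. In the first unfixed list a domain of 5850 bp shared with IPT8 gave 15.5%. The other 38.3% there came from a separate domain of 1350 bp, chr3:6615601-6616950, that touched no other protein-coding gene. IPT8, a cytokinin synthesis enzyme, was covered over 95.1% to 100% in every endosperm list and 100% in leaf. The inhibitors with enough reads were KRP1 and KRP7, at -0.01 ± 0.37 and -0.67 ± 0.51. KRP3 and KRP5 had 0% cover in every list.

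Most endosperm domains over cell-cycle genes touched a single gene, at shares near those of all gene-touching domains, although domains such as those over E2FC reached beyond it. Of 45 endosperm domains that touched a member, summed over the 4 lists, 37 touched no other protein-coding gene. By list that was 6 of 8 and 9 of 12 (fixed) and 12 of 14 and 10 of 11 (unfixed), against 73.6% and 67.8%, and 72.4% and 86.5%, of all gene-touching domains. Their median widths were 1725 and 1650 bp in the fixed lists and 1500 and 1350 bp in the unfixed lists, against 2100, 2400, 1950 and 1200 bp for all gene-touching domains of the same lists, so they were narrower in 3 lists and wider in the second unfixed list. In leaf 3 of 8 touched 1 gene, against 62% of all, and the median width was 5250 bp, against 2700 bp. The 32 members with no cover lay at a median of 3731 bp from the nearest domain of any list, with a range of 193 to 36519 bp.

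Fixation was not a clear divide for these genes. The fixed lists marked 5 ± 1.41 members and the unfixed lists 6.5 ± 3.54 (mean and SD, n = 2 each), a difference of -1.5 that was smaller than the spread. It became 1.0 without the first unfixed library. Of the 18 members with cover in an endosperm list, the guard-cell D cyclin (mean 58.1% fixed, 0% unfixed) and CYCA3;4 (0% fixed, 24.1% unfixed) had groups that did not overlap. The share of all genes with such groups was not computed, so these 2 members are not set apart from genes at large. With 2 libraries against 2 the smallest p a two-sided exact permutation test can give is 0.333. Both members reached it, so no member could pass 0.05. The replicate numbers are not stated to pair libraries.

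The count table also separates the maternal Col from the paternal Ler reads. Endosperm is triploid, with more maternal than paternal genome copies, and the H3 reads carry this dosage as well. Over all nuclear bins 81.2% of H3 reads were Col. How much of that share the dosage accounts for was not tested. Over the members, 88.6% of H3K27me3 reads were Col (8409 of Col and 1081 of Ler; 95% Wilson interval 88 to 89.2), against 80.8% of H3 reads (5239 and 1247; 79.8 to 81.7). The intervals cover counting error only. Col chromatin of the members thus carried 1.61 H3K27me3 reads per H3 read and Ler chromatin 0.867. Over all nuclear bins these were 1.78 and 0.814, and over genes marked in no list 1.24 and 0.679. The lean toward Col was thus also present in genes under the 50% threshold in every list, and a table-wide difference of parent or of read mapping cannot be told apart from it.

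The parental ratio of a gene is therefore given as the log2 of Col to Ler in H3K27me3 over Col to Ler in H3, relative to the median of unmarked genes. In 34 members with enough reads it had a median of -0.12, against 0.16 in all genes tested. Toward Col, 2 members were called (5.88%), against 8.04% of genes, and toward Ler 1 (2.94%), against 2.89%, so these shares were near the background. None of the 3 would be called by an adjusted p under 0.05 over all genes in place of the fold rule.

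CDKD1;3 had 93 Col and 4 Ler H3K27me3 reads, with 34 Col and 21 Ler H3 reads, for a ratio of 2.79 ± 1.29. CYCA3;4 had 263 Col and 30 Ler H3K27me3 reads, with 129 Col and 76 Ler H3 reads, for a ratio of 1.44 ± 0.56. Both had Col shares of H3 (61.8% and 62.9%) well under the 80.8% of the members together, and their Col shares of H3K27me3 were 95.9% and 89.8%. Toward Ler, CDKB1;2, a mitotic kinase of the plant-specific class, had 254 Col and 33 Ler H3K27me3 reads, with 209 Col and 18 Ler H3 reads, for a ratio of -1.48 ± 0.71. Its uncentred ratio was -0.58, and it was not called without centring. The 7 D cyclins tested lay between -0.11 and -1.44, and none was called. That side depends on the centring, since 5 of the 7 lay above 0 without it, and CYCD7;1 stood at 0.08 with only bins wholly inside the gene.

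E2FC had 310 Col and 12 Ler H3K27me3 reads, with 64 Col and 2 Ler H3 reads, too few Ler H3 reads to give a ratio. KRP2 had 70 Col and 29 Ler H3K27me3 reads, and 16 Col and 2 Ler H3 reads, likewise too few. Its Col share of H3K27me3 was 70.7%, under the 88.6% of all members. The Wilson interval of 61.1 to 78.8 covers counting error only and is not widened for clumping. Low shares were also found in CYCD5;1 (72.6%, 45 Col and 17 Ler reads) and KRP6 (66.7%, 10 and 5 reads), both without a parental ratio. The mark on CYCD2;1 was read as 80 Col and 4 Ler reads, with 17 Col and 4 Ler H3 reads.

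**Figure D5:**
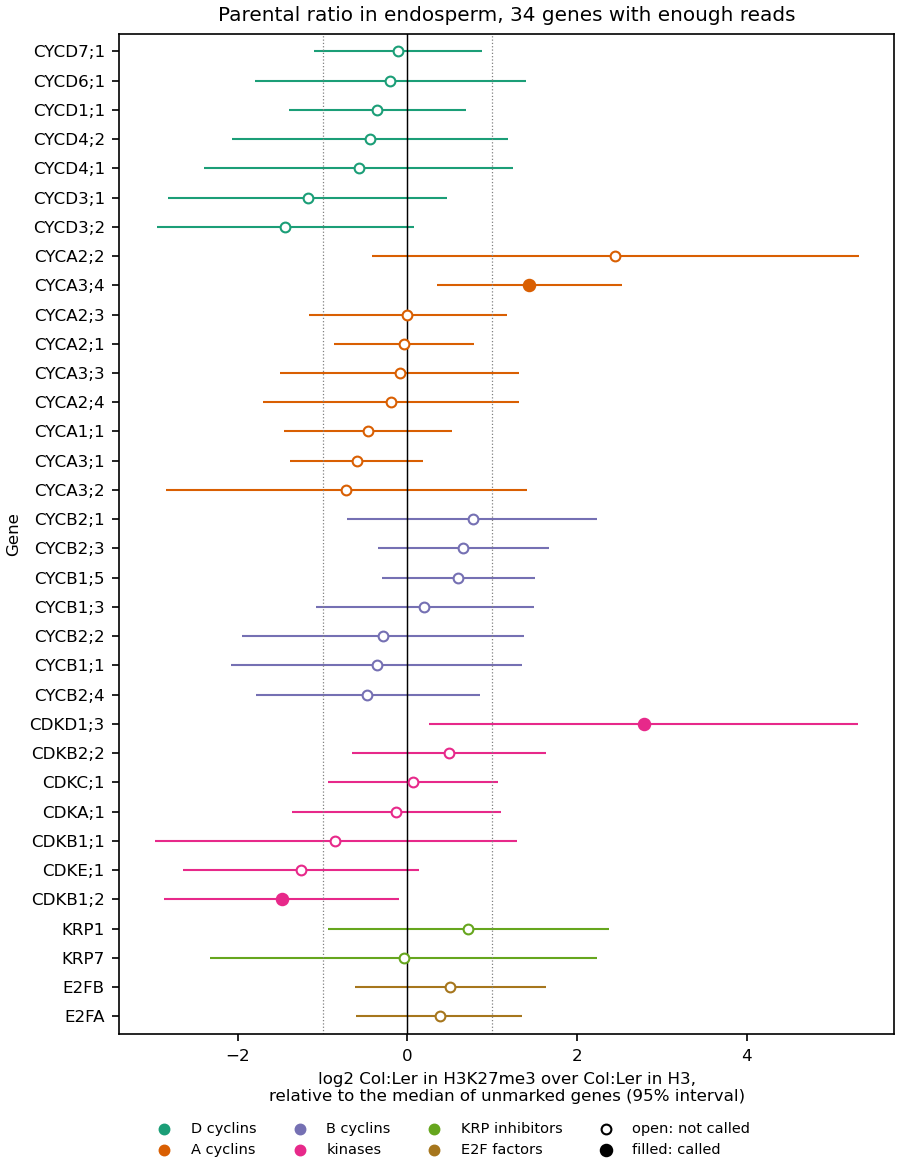
The parental ratio (x axis, log2, relative to the median of unmarked genes) with its 95% interval for the 34 members with enough reads (rows), coloured by role, with filled points where called. The 2 points called toward Col lie at 2.79 and 1.44 and the point called toward Ler at -1.48, and the D cyclins lie left of 0, which 5 of 7 would not do without centring.

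A list of 63 other cell-cycle names, of which 51 matched annotated genes, was set beside the members. It covers the retinoblastoma protein and E2F partners, some SIAMESE inhibitors, anaphase-promoting complex activators, replication licensing factors, Aurora kinases and P-type cyclins. Of the SIAMESE inhibitors only SIM, SMR1, SMR4, SMR5 and SMR7 matched. The names without a match were all other SMR inhibitors or MYB3R factors. Among the matched genes 2 were marked in all 4 endosperm lists, 9 in at least 1 and 3 in leaf, against 11.89%, 27.91% and 20.34% of all genes. DEL2 (AT5G14960), an atypical E2F factor that acts without a DP partner, had the pattern of E2FC. It was covered at 100% in both fixed lists and 100% and 83.5% in the unfixed lists, against 0% in leaf, with a ratio of 2.26 ± 0.30. The P-type cyclin CYCP2;1 was covered at 100% in all 5 lists, with a ratio of 1.63 ± 0.43.

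DEL2 also had a parental ratio of 2.85 ± 0.84, toward Col, from 611 Col and 12 Ler H3K27me3 reads, with 92 Col and 25 Ler H3 reads. Of 41 list genes tested for H3K27me3 over H3, 4 were called higher, the others being P-type cyclins of group 4 at 1.69 ± 0.48 and 1.05 ± 0.37, and 1 lower, the replication helicase subunit MCM5 at -1.09 ± 0.28. The shares of all genes tested were 19.16% higher and 1.23% lower. ORC6, of the origin recognition complex, was marked in the first unfixed list at 62.5% and in leaf at 70.4%. The retinoblastoma gene RBR1 and the E2F partners DPA and DPB were at -0.55 ± 0.31, -0.75 ± 0.45 and -0.42 ± 0.25, and none was called. Of 37 list genes tested for the parental ratio, 3 were called toward Col (DEL2, CCS52A2 and CDT1A) and 3 toward Ler (CDC6, MCM2 and AUR3), against 8.04% and 2.89% of all genes tested, with a median of -0.30. Uncentred, the ratios of CDC6, MCM2 and AUR3 were -0.17, -0.47 and -0.97, all short of 2-fold, so the calls toward Ler depend on the centring. Those of DEL2, CCS52A2 and CDT1A were 3.75, 3.17 and 2.22. Over all genes 17 were called toward Ler without centring, against 520 with it.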

How the data were processed

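The submitters' processing notes name Trim Galore, Bowtie2, Picard, deepTools 2.0, SICER and the build TAIR10, without the step of each. The authors deposited 1 list of H3K27me3 domains per library, with a p-value (or q-value, the labels do not say which) and an enrichment score whose base is not given and which served to rank domains of the same list. A further deposited table holds read counts (whole numbers) per bin of 150 bp, with Col and Ler columns for H3K27me3 and H3 and no replicates. It held 12189039 H3K27me3 and 7638577 H3 reads, in 552117 of 794273 nuclear bins. Whether reads can count in more than 1 bin is not stated.

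Genes came from the RefSeq annotation of TAIR10.1, treated as having the same nuclear coordinates as TAIR10. Domain positions are on TAIR10, counted from 1. Cover is the share of the gene body under domains, and marked means at least 50%. Reads of bins whose midpoint lay in a gene were summed, a pseudocount of 0.5 was added, and genes needed 40 reads per antibody and, for the parental ratio, 10 Ler H3 reads. Log2 ratios were centred on the median of unmarked genes, those marked in none of the lists (-0.53 before centring for H3K27me3 over H3 scaled to totals, 0.91 for the parental ratio). Counting SEs were multiplied by 2.07 and 1.61, the factors by which the ratios of the 2 parts of unmarked gene bodies differed beyond counting (7588 and 6660 genes). Calls needed 2-fold and a 95% interval beyond 0. The ratios were tested on simulated data. With no replicate columns, no model over libraries was fitted to the counts. Python 3.11.15, numpy 2.4.6, pandas 2.3.3 and scipy 1.17.1 were used.

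Genes given with values are those marked in at least 1 list, those with 25% cover or more, those called, and the highest and lowest ratio of each role. The members, the other lists of genes and the tests were chosen with earlier results of these data known. Alternatives for thresholds, centring, minimum reads and libraries are in the closing section. Promoter sequences, strand and motifs were not analysed here, nor were the IgG libraries and the seed coat and embryo tests.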

Additional observations from a re-analysis of the deposited data

How the results depend on the processing

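Of 221 values of single named genes set against an alternative, 191 kept their direction and call and 19 changed sign while called under neither setting, 17 of them without centring. No called value reversed, 2 lost their call (CDKB1;2 toward Ler, at -0.58 without centring and -1.51 with only bins wholly inside the gene) and 9 gained one, all without centring. The sign of an uncalled ratio thus depends on the centring. The count of members marked in all endosperm lists was 4 with any overlap, 0 at 80% cover, 1 with the upper 75% of each list by enrichment (CYCD2;1) and 1 with 1000 bp added on both sides (E2FC), an interval chosen after seeing the data. Over all genes these settings gave 4722, 1890, 2387 and 2236, against 3262 in the main setting. The count of members was 2 to 3 as each library was left out, and that of all genes 3390 to 4233. Restricted to genes not marked in leaf the count of members was 0 at 80% cover, 1 with the upper 75%, 1 with the added 1000 bp and 2 to 3 as each library was left out. Over all genes this restricted count was 375, 492, 488 and 658 to 909, against 634 in the main setting. The count of members marked in leaf was 6 with any overlap, and that of all genes 7332. The count of members with a leaf mark and no endosperm mark was 2 at 80% cover and 2 with the added 1000 bp (CYCB1;5 and CYCD7;1), and 0 to 1 as each library was left out: CYCD7;1 without the first fixed library and CYCB1;5 without the first unfixed one. Over all genes it was 884, 937 and 902 to 992, against 807 in the main setting. The fixed minus unfixed difference ran from -4.0 to 1.0 as each library was left out, and reversed to 1.0 without the first unfixed library. The fit with the replicate number as a block gave -1.5 from -5 and 2 within numbers. Same-numbered libraries did not deviate together (correlation -0.03 over 9453 genes).

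Members called higher in H3K27me3 over H3 were 0 at a minimum of 100 reads, 2 at 20 reads and 7 with an adjusted p under 0.05 in place of 2-fold. Over all genes these settings called 2360, 4257 and 5123 higher, against 3788 in the main setting. Members called toward Col were 9 without centring, 1 at 100 reads and 0 with the adjusted p. At 100 reads and with the adjusted p, 1290 and 263 of all genes were called toward Col. Members called toward Ler were 0 without centring, 3 with the overall Col to Ler ratio of each antibody removed, 0 with only bins wholly inside the gene, 0 with the adjusted p and 4 with the counting SE alone. For the last 3 settings the counts over all genes were 506, 32 and 1181. For all genes the split toward Col and toward Ler was 1446 and 520, against 6589 and 17 without centring and 903 and 1007 with the overall ratio removed. The cause of these shifts was not tested beyond what each alternative changes by construction. An alternative with 1000 bp upstream was not run because the annotation used gives no strand. Few Ler reads in either antibody limit the parental ratio.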

Other observations

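The members without a ratio of H3K27me3 over H3 were 13. Of these, 5 had no allele-assigned reads (CDKB2;1, CYCB1;2, CYCB3;1, CYCD3;3 and KRP3), and 8 had too few (CDKD1;1, CDKD1;2, CYCA1;2, CYCB1;4, CYCD2;1, KRP2, KRP5 and KRP6). Among the 32 members with no cover, 3 lay within 1000 bp of a domain: CYCD1;1 at 193 bp, CDKB2;2 at 354 bp and CYCD4;1 at 369 bp. The gene next to CDKA;1 on the lower-coordinate side, the sugar transporter gene SWEET11, was covered at 92.2% and 100% in the fixed lists and 100% and 85.8% in the unfixed lists, against 92.2% in leaf, while CDKA;1 itself had no cover.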
